A study of Mus musculus with 6 samples.

Results

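The core circadian clock genes are the 10 genes Arntl, Clock, Npas2, Per1, Per2, Per3, Cry1, Cry2, Nr1d1 and Nr1d2, picked by symbol out of 48709 genes with a row in the count table. All 10 passed the filter on low counts and were among the 17757 genes tested. They were chosen with the difference between the groups already known, so their values in that comparison are a description and support nothing on their own. No p-value is printed for a single core gene. Statements of which core genes were past a threshold are likewise descriptions only. The tissue was gingiva, the mucosa around the teeth, of 12-week-old C57BL/6 mice, and RNA sequencing libraries were made from Plg KO mice, which lack plasminogen, and from wild-type littermates, Plg WT, with 3 libraries each. Plasminogen is the precursor of the protease that dissolves fibrin. The labels state neither how the Plg allele was made nor whether each library came from a separate animal, so the p-values below measure the spread between these libraries. The time of day of collection is not stated either, and where it differed between the groups, time of day and genotype cannot be told apart.

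The circadian clock is a feedback loop of transcription that runs in nearly every cell. ARNTL (also called BMAL1) pairs with CLOCK or with its relative NPAS2 and switches on the Per, Cry and Nr1d genes through DNA motifs called E-boxes. PER and CRY proteins then block that activator, while the nuclear receptors NR1D1 and NR1D2 (REV-ERB alpha and beta) repress Arntl, Npas2 and Clock through ROR elements, the same sites at which ROR proteins activate. In mouse tissues outside the brain, Arntl and Npas2 transcripts are known to be high at about the hours when Nr1d1 and Dbp transcripts are low. Oral mucosa and its keratinocytes are known to carry a clock of this kind.

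Total gene counts were 26183389 to 36429150 in the Plg KO libraries and 28184139 to 36006829 in the Plg WT libraries. Levels are given in CPM, in which counts are divided by library size corrected for composition. A gene with a count of 0 could have up to 3 counts, or 0.0810 to 0.117 CPM depending on the library, by counting error alone. Plg itself had 2 counts over the Plg KO libraries and 2 over the Plg WT libraries and gives no check of the labels in this tissue. Counts of Ddx3y, on the Y chromosome, were 1838 in Plg KO 1, 1475 in Plg WT 3 and at most 2 elsewhere, and those of Xist, from the inactive X chromosome of females, were 2 in Plg KO 1, 10 in Plg WT 3 and 917 to 1129 elsewhere. Each group therefore holds animals of both sexes, and its spread is not technical alone. Keratinocyte markers were abundant in every library, with 7 markers summing to 40366 to 48924 CPM in Plg KO and 38693 to 46243 CPM in Plg WT, as gingiva should have. In bulk tissue, fewer cells of a type and less RNA per cell cannot be told apart.

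Most of the loop's repressors were lower in gingiva without plasminogen, and 2 of its 3 activators were higher. In 9 of the 10 genes the 3 Plg KO libraries lay wholly on one side of the 3 Plg WT libraries. Arntl, Npas2 and Cry1 lay above, Per1, Per2, Per3, Cry2, Nr1d1 and Nr1d2 lay below, and Clock overlapped. Groups that do not overlap were found in 7.51% of all tested genes with Plg KO higher and in 7.18% with Plg KO lower. With the quasi-likelihood test of edgeR, adjusted by Benjamini-Hochberg over all tested genes, 2 of the 10 genes were past an adjusted p of 0.05 with Plg KO higher, which held for 0.191% of all genes, and 5 with Plg KO lower, which held for 0.0451%. Because the genes were chosen on this contrast, nothing is read from these shares. The 7 genes past the threshold were Arntl, Npas2, Per1, Per3, Cry2, Nr1d1 and Nr1d2. With 1 library left out, the log2 change of each of the 10 genes kept its direction. For the 9 genes whose groups did not overlap, a turn was hardly possible. The test then has fewer degrees of freedom whichever library is left out, and the count changed in most cases. It was 0 higher and 2 lower without Plg KO 1, and 2 higher and 5 lower without Plg WT 1. Without Plg KO 2, Plg KO 3, Plg WT 2 or Plg WT 3 it was 0 higher and 1 lower, Nr1d1 each time. Over all genes, those same fits called 1 or 2 genes in each direction. The fit without Plg KO 1 called 32 higher and 6 lower over all genes, and the fit without Plg WT 1 called 184 and 35. Without both libraries that have Ddx3y counts, the count among the 10 was 0 higher and 1 lower. The median log2 change of the 10 genes was -1.04, against -0.00 over all tested genes.

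**Figure D1:**
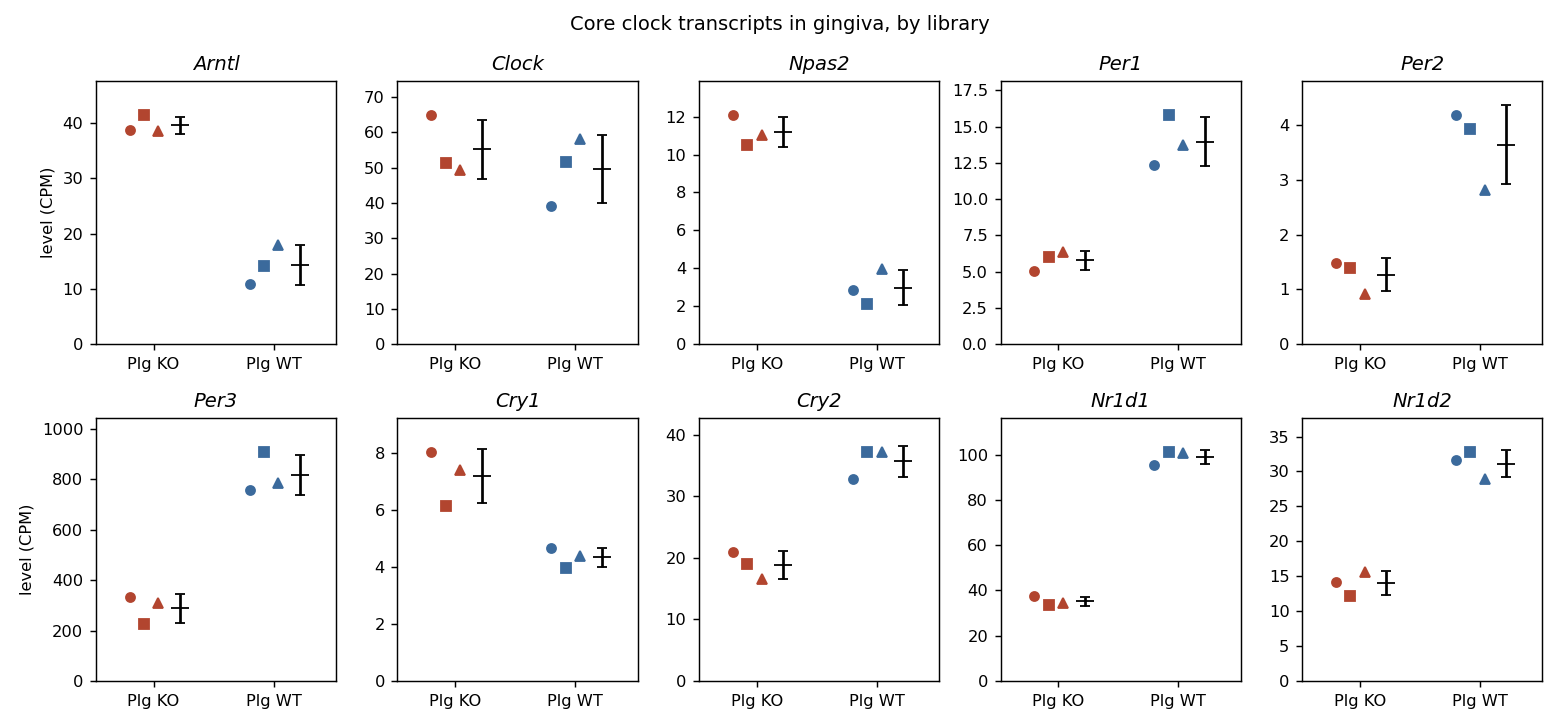
Level of each core clock gene (CPM, linear axis from 0) in the 3 Plg KO libraries (red, left) and the 3 Plg WT libraries (blue, right); circles, squares and triangles are libraries 1, 2 and 3 of a group, and the bar beside them is the mean ± SD. The groups are apart in every panel except that of Clock, where Plg KO runs from 49.3 to 64.8 CPM and Plg WT from 39.2 to 58.0 CPM.

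The activators come first. Arntl (ENSMUSG00000055116, GRCm38 chromosome 7, 113207465 to 113314126, plus strand) encodes the main partner in the activating pair. It had 38.8, 41.4 and 38.6 CPM in Plg KO 1, 2 and 3, against 10.9, 14.1 and 18.0 CPM in Plg WT 1, 2 and 3. All Plg KO libraries were above all Plg WT libraries, and the Plg KO libraries lay close together while the Plg WT libraries were spread out. The fitted log2 change was 1.47 ± 0.18 (SE), a 2.77-fold higher level.

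Npas2 (ENSMUSG00000026077, chromosome 1, 39193731 to 39363236, plus strand) encodes a relative of CLOCK that can take its place beside ARNTL. It had 12.1, 10.5 and 11.01 CPM in Plg KO 1, 2 and 3, against 2.87, 2.14 and 3.94 CPM in Plg WT 1, 2 and 3. The groups were apart, and the log2 change of 1.90 ± 0.23 (SE) was the highest of the 10 genes. Clock (ENSMUSG00000029238, chromosome 5, 76209868 to 76304792, minus strand) had 64.8, 51.4 and 49.3 CPM in Plg KO 1, 2 and 3, against 39.2, 51.7 and 58.0 CPM in Plg WT 1, 2 and 3. Here the groups overlapped, with the highest value in a Plg KO library and the lowest in a Plg WT library, and the log2 difference was 0.15 ± 0.17 (SE). Per kilobase of exon, Npas2 stood at 0.534 to 0.639 of the level of Clock in the Plg KO libraries and at 0.119 to 0.209 of it in the Plg WT libraries. Clock and Npas2 transcripts share 0 stretches of 37 bases, the length of a read, with each other or with any other annotated gene.

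Sequences around the transcription starts of these genes are shown because the clock's factors act on short motifs there. RefSeq windows on GRCm38.p6, from 250 bases before to 50 bases after a start, were matched for 9 of the 10 genes, all but Per2, in 13 windows. They were searched on both strands for the E-box CACGTG, the E-box-like CACGTT, the D-box TTANGTAA (N is any base) to which DBP and TEF bind, the ROR element core TAGGTCA or TGGGTCA and the cAMP response element TGACGTCA. Of 32851 such windows in the genome, 7.15% hold the E-box, 4.69% the E-box-like motif, 2.32% the D-box, 6.45% the ROR element core and 1.79% the cAMP response element. Matches are descriptions of letters and not evidence of binding, and 6 of the 9 genes had at least 1. Arntl has a ROR element core whose first base is base 31 after the start in 1 of its 2 windows, shown with the motif in capitals (chr7:113207501-113207560, plus strand):
Arntl: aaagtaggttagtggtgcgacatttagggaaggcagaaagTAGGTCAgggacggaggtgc
No match was found in the windows of Npas2, Clock or Nr1d2, which says only that these letters are not in these windows.

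**Figure D2:**
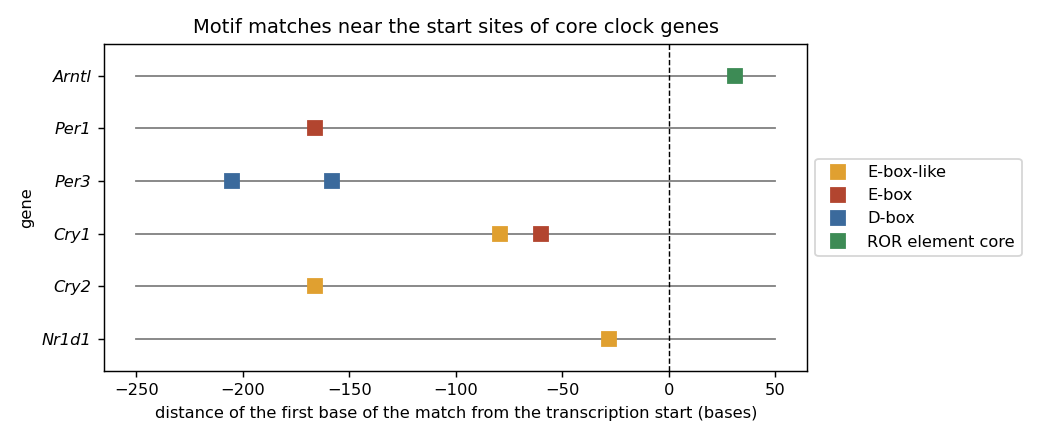
Position of each motif match (distance of its first base from the transcription start, in bases) in the windows of the 6 core clock genes that have a match. Arntl carries a ROR element core after its start, Per3 carries a pair of D-boxes at -205 and -158, and Per1, Cry1, Cry2 and Nr1d1 carry E-box or E-box-like letters.

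The period genes, whose products hold the activator in check, were all lower in Plg KO. Per1 (ENSMUSG00000020893, chromosome 11, 69095217 to 69109960, plus strand), which also responds quickly to outside signals, had 5.05, 5.98 and 6.33 CPM in Plg KO 1, 2 and 3, against 12.4, 15.8 and 13.7 CPM in Plg WT 1, 2 and 3. Every Plg KO library was below every Plg WT library, and the log2 change was -1.27 ± 0.15 (SE). Per2 (ENSMUSG00000055866, chromosome 1, 91415982 to 91459324, minus strand) had 1.48, 1.398 and 0.924 CPM in Plg KO 1, 2 and 3, against 4.18, 3.93 and 2.82 CPM in Plg WT 1, 2 and 3. The groups did not overlap, the log2 difference was -1.52 ± 0.28 (SE), and the gene was not past the threshold. Its Plg KO values rest on 55, 36 and 33 counts in libraries 1, 2 and 3, the fewest of the 10 genes.

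Per3 (ENSMUSG00000028957, chromosome 4, 151003652 to 151044665, minus strand), which in mice can be lost with little effect on the clock's period, had 334, 224 and 308 CPM in Plg KO 1, 2 and 3, against 757, 909 and 785 CPM in Plg WT 1, 2 and 3. The Plg KO libraries were all below the Plg WT libraries, with a log2 change of -1.50 ± 0.17 (SE). Per kilobase of exon, Per3 made up 94.7% to 96.8% of the summed level of the period genes in Plg KO and 96.4% to 96.5% in Plg WT. In Plg WT its 85.0 ± 8.40 CPM per kilobase (SD, n = 3) placed it at percentile 96.0 of the 17717 tested genes with an annotated length. It shares 43 of 9673 stretches of 37 bases with other annotated genes (0.445%), and the sources used here do not say how reads that match several places were counted.

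Per1 and Per3 differ in the motifs near their starts. Per1 has an E-box at -166 in 1 of its 2 windows (chr11:69098743-69098828, plus strand), and Per3 has a D-box at each of 2 places, -205 and -158 (chr4:151044776-151044910, minus strand). The matches are in capitals:
Per1: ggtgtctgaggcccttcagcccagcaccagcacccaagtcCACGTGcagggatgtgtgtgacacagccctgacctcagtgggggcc
Per3: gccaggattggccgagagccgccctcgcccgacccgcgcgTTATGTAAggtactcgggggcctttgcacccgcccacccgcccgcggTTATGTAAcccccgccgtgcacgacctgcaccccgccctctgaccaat

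The cryptochromes, flavoproteins that together with PER repress ARNTL and its partner, parted in direction. Cry1 (ENSMUSG00000020038, chromosome 10, 85131700 to 85185064, minus strand) had 8.02, 6.14 and 7.39 CPM in Plg KO 1, 2 and 3, against 4.64, 3.96 and 4.39 CPM in Plg WT 1, 2 and 3. It was the only repressor of the 7 with every Plg KO library above every Plg WT library, its log2 difference was 0.73 ± 0.17 (SE), and it was not past the threshold. Cry2 (ENSMUSG00000068742, chromosome 2, 92403646 to 92434043, minus strand) had 20.97, 19.0 and 16.5 CPM in Plg KO 1, 2 and 3, against 32.8, 37.2 and 37.2 CPM in Plg WT 1, 2 and 3. The Plg KO libraries were all lower, with a log2 change of -0.92 ± 0.12 (SE). Per kilobase of exon, Cry1 stood at 0.611 to 0.847 of the level of Cry2 in the Plg KO libraries and at 0.202 to 0.267 of it in the Plg WT libraries. Cry1 transcripts in mouse tissues are known to peak later than those of the Per genes and Cry2.

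Both cryptochromes have E-box or E-box-like letters near the start. Cry1 has an E-box at -60 and an E-box-like motif at -79 (chr10:85185069-85185173, minus strand), and Cry2 an E-box-like motif at -166 (chr2:92434190-92434275, minus strand). The E-box-like matches read AACGTG here because they lie on the other strand:
Cry1: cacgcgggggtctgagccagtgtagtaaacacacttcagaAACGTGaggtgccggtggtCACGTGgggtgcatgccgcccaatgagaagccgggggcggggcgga
Cry2: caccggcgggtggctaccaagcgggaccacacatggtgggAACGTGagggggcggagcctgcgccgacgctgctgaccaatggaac

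The REV-ERB receptors, which repress Arntl and Npas2, were both lower in Plg KO. Nr1d1 (ENSMUSG00000020889, chromosome 11, 98767932 to 98775333, minus strand) had 37.6, 33.8 and 34.4 CPM in Plg KO 1, 2 and 3, against 95.5, 101.2 and 100.6 CPM in Plg WT 1, 2 and 3. The groups were far apart and each was tight, with a log2 change of -1.49 ± 0.08 (SE). Nr1d2 (ENSMUSG00000021775, chromosome 14, 18204054 to 18239127, minus strand) had 14.1, 12.2 and 15.6 CPM in Plg KO 1, 2 and 3, against 31.7, 32.8 and 29.0 CPM in Plg WT 1, 2 and 3. It too was lower in every Plg KO library, with a log2 change of -1.15 ± 0.12 (SE). Per kilobase of exon, the level of Nr1d1 was 3.87 to 4.87 times that of Nr1d2 in the Plg KO libraries and 5.30 to 6.11 times in the Plg WT libraries. Nr1d1 has an E-box-like motif at -28 (chr11:98775360-98775445, minus strand), shown in capitals:
Nr1d1: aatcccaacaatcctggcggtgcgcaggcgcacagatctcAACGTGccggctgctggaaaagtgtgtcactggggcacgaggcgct

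Overlapping genes could lend reads to a few of these genes, since the library kit does not mark strand. Exons of Nr1d1 and of Thra, a thyroid hormone receptor gene on the opposite strand, share 263 bases at the genes' 3′ ends, 8.55% of the exon length of Nr1d1. Thra had 39.4, 39.3 and 47.1 CPM in Plg KO 1, 2 and 3, against 43.0, 51.6 and 74.7 CPM in Plg WT 1, 2 and 3, with a log2 difference of -0.43 ± 0.20 (SE; edgeR adjusted p = 0.588). Those groups overlapped. The transcript D930015M05Rik shares 295 bases with Cry2 exons on the opposite strand and had at most 4 counts in any library. Arntl shares 33 exon bases with Gm45355, which had at most 2 counts in any library. Of the genes that overlap a core clock gene without sharing exons, the processed pseudogene Gm3617, in an intron of Npas2 on the same strand, had 1.21, 1.28 and 1.85 CPM in Plg KO 1, 2 and 3, against 0.437, 0.643 and 0.577 CPM in Plg WT 1, 2 and 3 (edgeR adjusted p = 0.195). Its Plg KO libraries were all above the Plg WT libraries, as were those of Npas2 itself. The others were Camta1, Ube2n-ps1, Gm43658 and Gm20428, with log2 differences of -0.17 ± 0.15 (SE) for Camta1 and -0.07 ± 0.14 for Ube2n-ps1, while Gm43658 had at most 3 counts and Gm20428 at most 1 count in any library. Nr1d2 shares 430 of 5403 stretches of 37 bases (7.96%) with a processed pseudogene on chromosome 19, AC170187.1, which was not analysed here.

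Within each library, the average activator and the average repressor lay on opposite sides of their means. The ratio of Arntl to Nr1d1, per kilobase of exon, does not depend on how libraries are scaled to each other. It was 0.422, 0.501 and 0.460 in Plg KO 1, 2 and 3, against 0.0467, 0.0570 and 0.0732 in Plg WT 1, 2 and 3. Even the lowest Plg KO ratio was well above the highest Plg WT ratio. On a scale of log2(CPM + 0.5) centred on each gene's mean over the 6 libraries, the mean of the 3 activators minus the mean of the 7 repressors was 1.06, 1.10 and 0.99 in Plg KO 1, 2 and 3, against -1.26, -1.22 and -0.67 in Plg WT 1, 2 and 3. Plg WT 3 was the Plg WT library nearest to Plg KO on this scale. These ratios and means follow from the same contrast that chose the genes and are descriptions only.

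**Figure D3:**
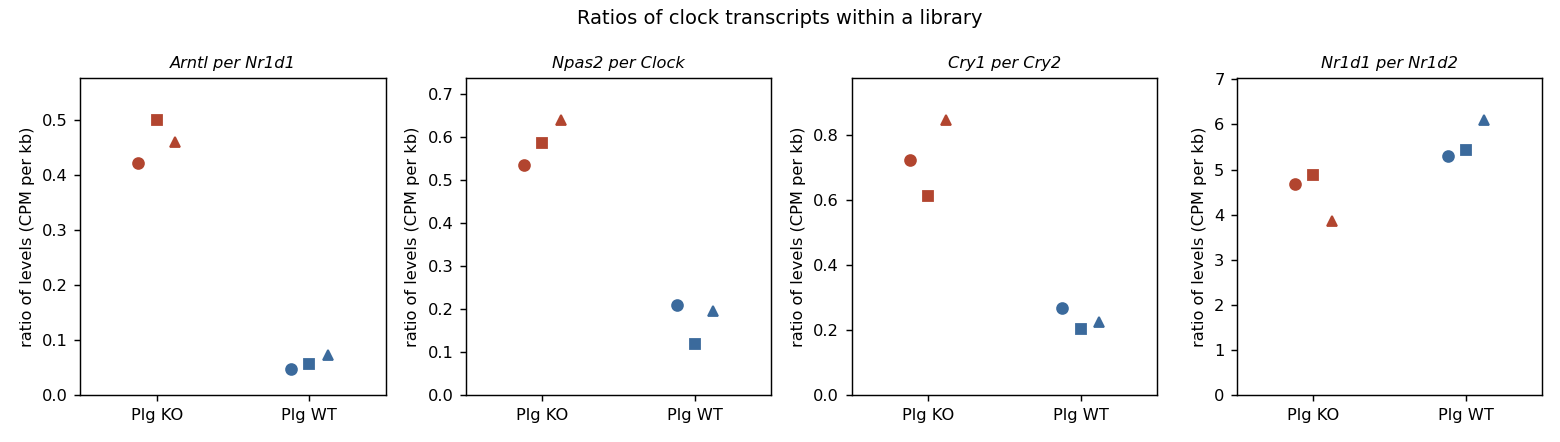
Ratio of the levels of 2 clock transcripts within each library (per kilobase of exon, linear axis from 0), Plg KO in red on the left and Plg WT in blue on the right; circles, squares and triangles are libraries 1, 2 and 3. Arntl per Nr1d1 runs from 0.422 to 0.501 in Plg KO and from 0.0467 to 0.0732 in Plg WT, and Nr1d1 per Nr1d2 is the ratio of these that is lower in Plg KO.

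The order of levels per kilobase of exon also differed between the groups. In Plg KO it ran Per3, Nr1d1, Arntl, Clock, Cry2, Nr1d2, Npas2, Cry1, Per1 and Per2, with means from 30.1 ± 5.96 down to 0.217 ± 0.0515 CPM per kilobase (SD, n = 3). Of neighbours in that order, Cry2 and Nr1d2, Nr1d2 and Npas2, and Npas2 and Cry1 had ranges that overlapped. In Plg WT the order was Per3, Nr1d1, Nr1d2, Cry2, Clock, Per1, Arntl, Cry1, Npas2 and Per2, with means from 85.0 ± 8.40 down to 0.622 ± 0.123 CPM per kilobase. There, Nr1d2 and Cry2, Per1 and Arntl, and Npas2 and Per2 overlapped. Arntl thus took place 3 in Plg KO and place 7 in Plg WT, and Per1 place 9 in Plg KO and place 6 in Plg WT.

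The spread between libraries of the same group differed among the 10 genes. It enters the SE of the contrast that chose them and is given as a description. For Nr1d1 the within-group SD of log2(CPM + 0.5) was 0.067, and 12.4% of 1769 genes of a like level (mean within 0.5 on the log2 scale) had a smaller one. For Arntl it was 0.25, with 79.7% of 2464 like genes below it, and for Clock 0.25, with 86.5% of 1918 below it. Npas2 and Per3 followed with 62.9% and 75.8% of their like genes below them, and Cry1, Per1, Nr1d2, Per2 and Cry2 stood between 22.5% and 44.7%. Within Plg WT, Arntl and Clock were both lowest in library 1, at -0.35 and -0.32 from the group mean, and both highest in library 3, at 0.35 and 0.24. Among the 9 genes whose groups did not overlap, Plg WT 2 was the Plg WT library farthest from the mean of Plg KO in 7 and nearest in 0, whereas Plg WT 1 was nearest in 5 and Plg WT 3 in 4. In Plg KO no library stood out in this way, with 4, 2 and 3 of the 9 genes nearest to Plg WT in libraries 1, 2 and 3.

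**Figure D4:**
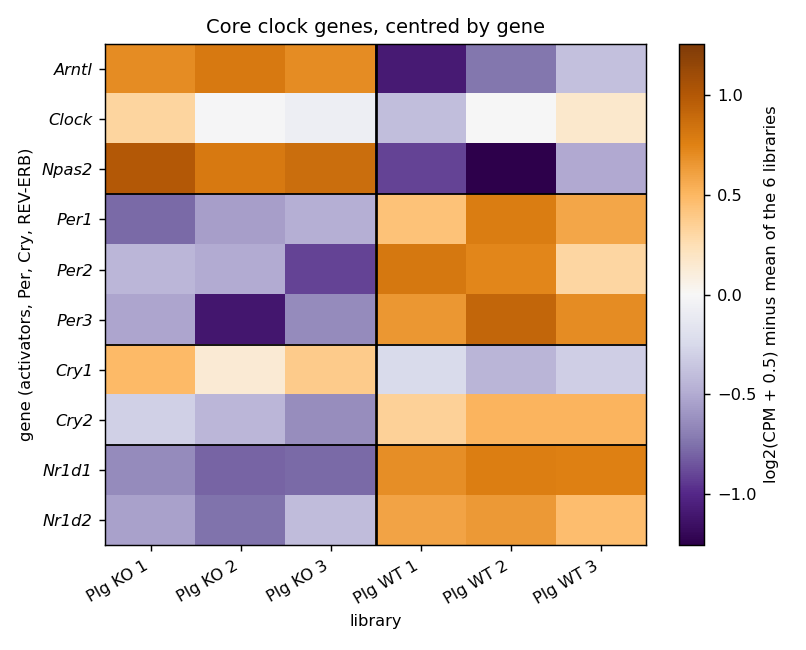
Core clock genes (rows, grouped as activators, Per, Cry and REV-ERB genes) in each library (columns, Plg KO left and Plg WT right), as log2(CPM + 0.5) minus the gene's mean over the 6 libraries. Arntl, Npas2 and Cry1 are above their mean in all Plg KO libraries, Clock is mixed, and the other 6 genes are below it in all Plg KO libraries.

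A list of 21 other clock genes held the output factors, the ROR activators and proteins that modify the core proteins, of which 20 were tested and Fbxl21 was not. This list, like those that follow, was chosen with earlier results of these data known. Its counts and p-values are therefore descriptions and no independent support for the core genes' values. By the same edgeR test 2 fell and 0 rose, against 0.0451% lower and 0.191% higher of all genes. At an unadjusted p under 0.05, 9 were lower and 2 higher, where 4.27% of all genes were lower and 4.97% higher, 9.25% in all. Their median log2 change was -0.25, and -0.00 over all tested genes. Dbp, a factor that binds D-boxes and follows the clock closely, had 1.13, 0.855 and 0.952 CPM in Plg KO 1, 2 and 3, against 8.32, 8.46 and 5.51 CPM in Plg WT 1, 2 and 3, and fell by 2.91 ± 0.25 (SE) on the log2 scale (edgeR adjusted p = 0.0150). Tef, its relative, had 36.5, 21.8 and 29.0 CPM in Plg KO 1, 2 and 3, against 82.5, 88.7 and 69.2 CPM in Plg WT 1, 2 and 3, and fell by 1.46 ± 0.19 (edgeR adjusted p = 0.0446). For both, every Plg KO library was below every Plg WT library.

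Ciart, a repressor of the activating pair, and Bhlhe41 (also called DEC2), which competes for E-boxes, missed the threshold. Ciart had 2.83, 1.05 and 1.74 CPM in Plg KO 1, 2 and 3, against 8.87, 8.25 and 8.23 CPM in Plg WT 1, 2 and 3 (log2 difference -2.15 ± 0.33, edgeR adjusted p = 0.0682). Bhlhe41 had 236, 209 and 285 CPM in Plg KO 1, 2 and 3, against 524, 504 and 441 CPM in Plg WT 1, 2 and 3 (log2 difference -1.01 ± 0.14, edgeR adjusted p = 0.0504). In these too the Plg KO libraries all lay below the Plg WT libraries. Both were past the threshold with DESeq2, limma-voom and limma-trend with either pseudocount. Without Plg KO 2, without Plg KO 3 or without Plg WT 2 the list had 0 genes lower, without Plg WT 3 it had 1, and without Plg KO 1 or without Plg WT 1 it had 3. Nfil3, a repressor at D-boxes named here after its values were seen, had a log2 difference of 0.71 ± 0.28 and was not past the threshold. It was 1 of the 2 genes of this list higher at an unadjusted p under 0.05, where 9 were lower. Its groups overlapped, at 7.21, 14.1 and 10.4 CPM in Plg KO 1, 2 and 3, against 7.23, 4.68 and 7.37 CPM in Plg WT 1, 2 and 3. E-boxes stood in the start windows of 4 of the 16 genes of this list that have a window, where 7.15% of all windows hold one and some genes have several windows. The 4 were Tef, Bhlhe41, Ciart, with 3 E-boxes, and Cipc, whose log2 difference was -0.36 ± 0.11. The window of Dbp had no match.

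**Figure D5:**
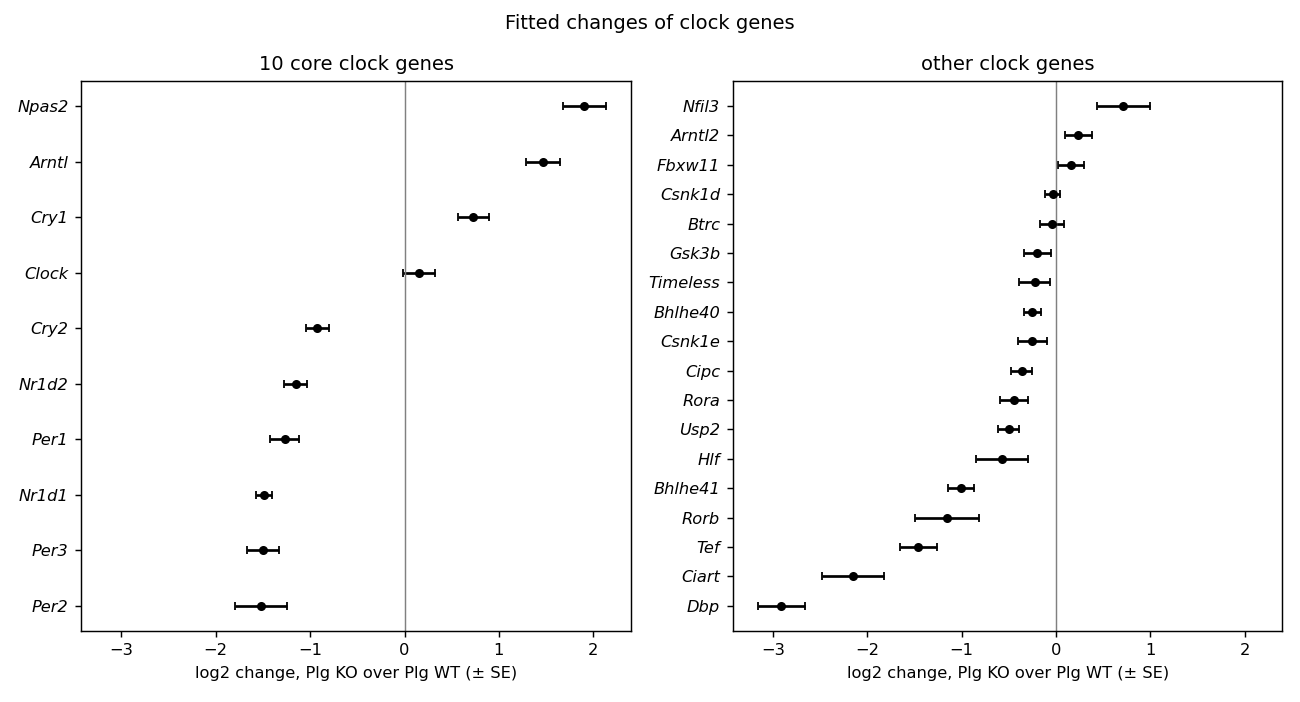
Fitted log2 change of Plg KO over Plg WT with its SE (bars) for the 10 core clock genes (left) and for other clock genes of the list (right), each sorted by size. Npas2 at 1.90 and Arntl at 1.47 stand at the upper end and Per2 at -1.52 at the lower end of the core genes, and Dbp at -2.91 and Ciart at -2.15 lie lowest among the others.

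A further list held genes known to follow the clock in other tissues, without Dbp and Tef, which stood in the list above. Of 11 in this list, edgeR called 0 (2 lower and 0 higher at an unadjusted p under 0.05, beside 4.27% and 4.97% of all genes, 1 lower by DESeq2 and 0 by limma-voom), and the median log2 change was -0.11. The members with the smallest p were Tspan4, a tetraspanin, at a log2 difference of -0.64 ± 0.15 (edgeR adjusted p = 0.193), Wee1, a kinase that delays mitosis, at -0.38 ± 0.15, Pparg at -0.35 ± 0.23 and Sirt1 at -0.49 ± 0.32. Tspan4 was the gene that DESeq2 called. Of the 11 genes, 3 lay lower in every Plg KO library (Wee1, Tspan4 and Pparg), beside 7.18% of all genes, 0 lay higher and 8 overlapped.

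Per1 and other clock genes also answer to glucocorticoid hormone and to temperature, so lists of such genes were set beside them. Of 11 genes induced by glucocorticoid, edgeR called 0 (3 lower and 0 higher at an unadjusted p under 0.05, beside the same 4.27% and 4.97% of all genes, 1 lower by DESeq2 and 0 by limma-voom), with a median log2 change of -0.20. Tsc22d3, which encodes the glucocorticoid-induced protein GILZ and also follows the clock, had 157, 161 and 243 CPM in Plg KO 1, 2 and 3, against 290.1, 309 and 464 CPM in Plg WT 1, 2 and 3, with a log2 difference of -0.92 ± 0.24 (edgeR adjusted p = 0.242). Its groups did not overlap. Ddit4, Sgk1 and Klf9 had log2 differences of -0.62 ± 0.20, -0.33 ± 0.11 and -0.40 ± 0.17, and their groups did not overlap either. Of the 11 genes, 4 lay lower in every Plg KO library, beside 7.18% of all genes, 0 lay higher and 7 overlapped. Their log2 differences were negative in 10 and positive in 1. Fkbp5, named here after its values were seen, was among those that overlapped, with a log2 difference of -0.18 ± 0.40. It had 17.9, 19.8 and 29.5 CPM in Plg KO 1, 2 and 3, against 18.5, 14.7 and 43.2 CPM in Plg WT 1, 2 and 3. Of 9 temperature-responsive genes, edgeR, DESeq2 and limma-voom each called 0 (1 lower and 0 higher at an unadjusted p under 0.05 in edgeR, beside 4.27% and 4.97%), with a median of -0.06. Hsph1 had a log2 difference of -0.35 ± 0.12, and Rbm3, Hspa8 and Hspb1 had 0.20 ± 0.16, -0.12 ± 0.09 and -0.09 ± 0.10. Hsph1 and Hspa8 were the 2 of the 9 that lay lower in every Plg KO library, 0 lay higher and 7 overlapped. The part of either signal in the clock genes' values was not tested.

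Markers of some cell types differed between the groups too. Of all tested genes, 7.51% lay higher in every Plg KO library than in any Plg WT library, and 7.18% lay lower. All 6 tested neutrophil markers of 7 were higher in every Plg KO library than in any Plg WT library. The 7 summed to 138 to 492 CPM in Plg KO and 28.1 to 67.6 CPM in Plg WT, most of it S100a8 and S100a9. Mean levels of S100a8 and S100a9 were 125 and 140 CPM in Plg KO, against 20.3 and 25.8 CPM in Plg WT. Ly6g, at 0 counts in Plg KO 1, Plg WT 1 and Plg WT 3, was not tested. Of 5 B cell markers, 4 were lower in every Plg KO library, with sums of 2.10 to 15.3 CPM in Plg KO and 17.9 to 69.8 CPM in Plg WT, and Ms4a1 was at 0 in Plg KO 2. Of 5 fat cell markers 4 were tested and 3 lay lower in every Plg KO library, with sums of 12.0 to 13.7 CPM in Plg KO and 32.1 to 72.5 CPM in Plg WT, and Lep was at 0 in Plg KO 2. Of 5 mast cell markers, 4 lay lower in every Plg KO library, with sums of 22.4 to 25.1 CPM in Plg KO and 29.4 to 38.5 CPM in Plg WT. Of 6 fibroblast markers, 2 lay lower, with sums of 1184 to 2093 CPM in Plg KO and 1810 to 2968 CPM in Plg WT. Of these lists edgeR called 1 neutrophil gene higher, Clec4e, and 1 fat cell gene lower, Cidec, both named here after their values were seen. Over all tested genes, 0.191% were called higher and 0.0451% lower. Of the 7 keratinocyte, 6 macrophage, 5 T cell, 6 skeletal muscle, 4 Schwann cell and 5 tested salivary gland markers, 0 had groups that did not overlap, and of 5 endothelial markers 1 did. Sums for macrophages were 62.7 to 81.2 CPM in Plg KO and 61.3 to 76.1 CPM in Plg WT, for T cells 6.48 to 8.57 CPM and 5.77 to 13.0 CPM, for endothelium 46.1 to 68.0 CPM and 56.4 to 74.8 CPM, and for Schwann cells 41.2 to 90.8 CPM and 67.7 to 144.6 CPM, in the same order of groups. Muscle markers summed to 1935 to 8868 CPM in Plg KO and 4461 to 8687 CPM in Plg WT, and salivary gland markers to 326.9 to 452 CPM in Plg KO and 81.1 to 459 CPM in Plg WT, where Smr3a was near 0 throughout. The part of these cells in the clock genes' values was not tested.

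The genes whose pattern over the 6 libraries was most like that of a core clock gene were found by the root mean square difference of centred log2(CPM + 0.5), among 13181 named genes outside the 10 with a mean of at least 1 CPM. For Nr1d1 they were Tef (0.20), Nlgn3 (0.26), Penk (0.27), Angptl1 (0.28) and Bhlhe41 (0.28). Nlgn3 encodes a synaptic adhesion protein, Penk an opioid peptide precursor and Angptl1 a secreted protein of the angiopoietin-like family. Of the core genes, Per3 lay nearer to Nr1d1 than any of these, at 0.16, and Per1 and Nr1d2 were at 0.21 each. For Npas2 the most like genes included Mxd3 (0.24), Aldh1a3 (0.26), U90926 (0.31) and Sprr2f (0.32). Mxd3 encodes a protein that pairs with MAX, the partner of MYC, Aldh1a3 an enzyme that makes retinoic acid and Sprr2f a protein of the cornified envelope. Arntl stood at 0.27 from Npas2, Cry1 at 0.59 and Clock at 0.84. Most of each pattern is the difference between the groups, which these genes share with the 10, so the list describes these 6 libraries only.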

How the data were processed

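Gingival RNA of 12-week-old mice was measured in 6 libraries. The Nextera XT kit, which does not mark strand, and 37 bp paired reads were used, per the labels' protocols. The builds GRCm38.p3 and mm10 and the aligner STAR 2.5.2a are named, without role or order, per the submitters' processing notes. The sources used here do not name the annotation. The authors deposited raw counts for 48709 genes, with 22 further entries that name no gene (at most 3.55e-05% of a library, left out), and CPM values for 21948 genes, TMM-scaled per the deposited table's own name. In each deposited CPM column 100% of values were whole multiples of what 1 read is worth (tolerance 0.01), and the recovered reads equalled the raw counts; testing them as an added alternative called 34 genes higher and 8 lower.

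Raw counts were tested with edgeR 4.0.16 (quasi-likelihood F test, TMM, filterByExpr, genotype only) in R 4.3.3, with Benjamini-Hochberg adjustment over 17757 genes and a call at an adjusted p under 0.05, which 34 genes passed with Plg KO higher and 8 with Plg KO lower. Printed CPM values come from this fit, given per library or as mean ± SD. The SE is the log2 change divided by the square root of F. Exon lengths, positions and overlaps came from GENCODE M21 on GRCm38 and start-site windows from RefSeq. The 10 genes, all gene and marker lists and the rule for named genes (all 10, genes overlapping them, called genes and the 4 of each list with the smallest p, and the 5 most like Nr1d1 and Npas2) were chosen with earlier results of these data known. The fit was tested on simulated data. Alternatives were DESeq2 1.42.0, RLE factors, no filter, at least 1 CPM in 3 libraries, limma-voom (limma 3.58.1), limma-trend on the log2 scale (deposited CPM with a pseudocount of 0.5 or 2), a replicate block, leaving out each library and, added after seeing the data, leaving out both libraries with Ddx3y counts. A few genes that the rule names are not reported here.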

Additional observations from a re-analysis of the deposited data

How the results depend on the processing

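Under the 16 alternatives the log2 change of each of the 10 core clock genes kept its direction, from -1.54 to -1.44 for Nr1d1, from 1.30 to 1.67 for Arntl, from 1.42 to 2.15 for Npas2, from -1.82 to -0.78 for Per2 and from 0.01 to 0.28 for Clock, the last not past the threshold in any. For Per2, against -1.52 as reported, the -0.78 came from limma-trend on deposited CPM plus 2, a pseudocount above its level in Plg KO. In every core gene except Clock the groups did not overlap, so a turn of direction was hardly possible under these settings. Counts of calls depended more on the setting. Over all genes, 34 were higher and 8 lower as reported, 263 and 132 with DESeq2, 122 and 40 with no filter, and 13 were lower in limma-trend on deposited CPM plus 0.5. Leaving out a library gave 1 to 184 higher and 1 to 35 lower, with the largest counts without Plg WT 1. Leaving out both libraries with Y-linked counts gave 5 and 2. Of the 10 core genes, 2 higher and 5 lower became 0 to 2 and 1 to 5 when a library was left out, 0 and 1 without both libraries with Y-linked counts, and 3 and 6 with DESeq2. Of the 20 other clock genes tested, 2 were lower as reported, 6 with DESeq2, 4 with no filter, 4 with limma-voom, 4 in limma-trend with either pseudocount, 0 to 3 with a library left out and 1 without both libraries with Y-linked counts. DESeq2 called 1 clock-following gene and 1 glucocorticoid-induced gene, against 0 as reported. With fewer libraries the test has fewer degrees of freedom, also without Plg WT 1, where the counts over all genes rose. Causes of these moves were not tested. Among the single genes reported, the sign turned for Btrc, which was not past the threshold. Btrc, at -0.04 as reported, ranged from -0.133 to 0.0563 with a library left out, turning without Plg KO 2 and without Plg WT 1. The labels give both groups replicate numbers 1 to 3. Deviations of same-numbered libraries from their group means correlated at -0.32, -0.04 and -0.29 over genes, and no library correlated best with its own number. Such deviations sum to 0 within a group, so these correlations cannot show whether libraries were collected in pairs. The main test did not pair them. With the replicate block, 2 genes were higher and 0 lower over all genes, 0 higher and 0 lower among the core genes, and 0 lower among the other clock genes, and a lost call is no sign of a weaker effect. Depth limits Per2, Fbxl21 and the lowest markers most.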
